A study of Mus musculus with 24 samples.

Results

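Adult mouse sensory neurons kept in a dish were compared between 24 h and 12 h after plating, with 3 RNA sequencing libraries at each time. These 6 libraries, chosen by the collection time in the sample labels, are part of a series of 24. All genes were compared, and 15006 of the 20782 genes the authors deposited passed a filter on low values and were tested. Both groups were dorsal root ganglion cells of adult mice, dissected from lumbar ganglia, dissociated, and plated sparsely on dishes coated with laminin at 5 μg/ml in Neurobasal-A medium with B-27 supplement. Time in culture is the only difference that the labels name, and no drug, lesion or mutation is named for either. Mouse strain, sex and exact age are not stated in the labels. Cells were sorted, lysed in Qiazol, and made into TruSeq V2 libraries from 10 ng of total RNA, per the labels' protocols. What the sort selected for is not stated, and neither is whether the libraries of a group came from separate cultures or animals, so p-values measure the spread between these libraries, which may be technical. The series as a whole concerns Alpha2delta2, the calcium channel subunit encoded by Cacna2d2, in axon regeneration. The remaining libraries hold cultures at 6 h and 36 h, ganglia after a lesion or sham surgery, and embryonic ganglia.

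Dorsal root ganglia hold the cell bodies of the sensory neurons that report touch, heat, pain, itch and limb position. Dissociation cuts every axon close to the cell body, so cultured adult neurons are axotomized cells that regrow neurites. Nerve injury is known to lower many ion channels, transmitter receptors and peptides of mature nociceptors, and to raise a set of regeneration-associated genes such as Atf3, Sprr1a and Gal. Satellite glia, Schwann cells, fibroblasts, macrophages and vascular cells of the ganglion can be carried into such cultures.

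Values were normalized reads, that is read counts divided by 1 factor per library. Depth was uneven, at 4.57, 25.7 and 14.4 M reads in the 24 h libraries, against 3.13, 24.0 and 18.7 M in the 12 h libraries, so replicate 1 was shallow at both times. The 12 h replicate 1 library also stood apart, with correlations of 0.975 and 0.974 to the other 12 h libraries, which correlated at 0.991. The deviation of a gene from its median over the 12 culture libraries was related to the GC content of its transcripts in several libraries. Differences between the times enter this deviation. The Spearman coefficients across 14868 genes, which are not independent replicates, were 0.0356, 0.279 and -0.422 in the 24 h libraries, against -0.561, 0.377 and 0.147 in the 12 h libraries. Most larger counts below are therefore also given without single libraries, named by time and replicate. For a call lost without 1 library, the library with the highest adjusted p is named, and leaving out others may lose it too. A correction for GC content is described in the closing section.

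Between 24 h and 12 h, 723 of the tested genes (4.82%) were higher and 1011 (6.74%) were lower, together 1734 (11.6%), by limma with Benjamini-Hochberg adjustment at a threshold of 0.05. The median log2 difference of all tested genes was 0.01. Differences of more than 1 on the log2 scale were found in 202 of the higher and 287 of the lower genes. Of the called genes, 1709 had libraries that did not overlap between the times, which also held for 30.5% of all tested genes. Both counts depended on single libraries. The higher genes numbered between 286 without the 24 h replicate 1 library and 1072 without the 12 h replicate 1 library, and the lower genes between 445 and 1492 in the same fits. Without both of these libraries 554 genes were higher and 893 lower. Called genes with very high levels included the nuclear long noncoding RNAs Malat1 and Xist, which were higher at 24 h (log2 difference 0.66 ± 0.12 and 0.71 ± 0.13, SE), and Ywhag and Fstl1, which were lower (-0.49 ± 0.15 and -0.55 ± 0.11). Ywhag encodes a 14-3-3 protein and Fstl1 a secreted follistatin-like protein. The call of Ywhag (limma adjusted p = 0.0491) was lost in 5 of the 6 fits that each left out 1 library, with the highest adjusted p at 0.194 for Ywhag without the 12 h replicate 3 library.

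**Figure D1:**
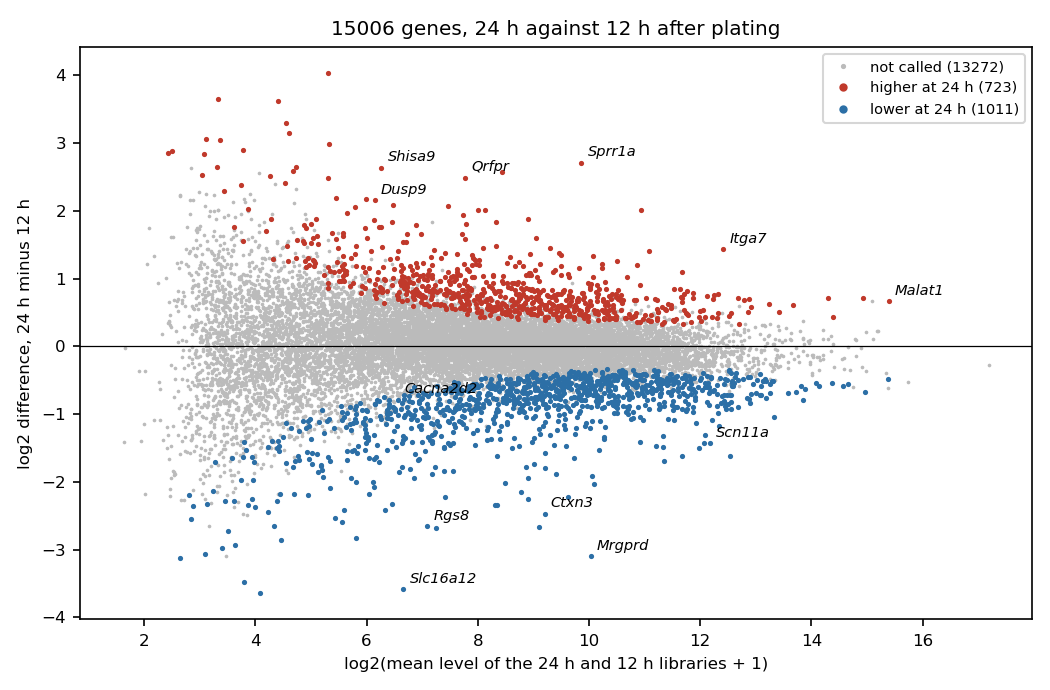
Each point is 1 of 15006 tested genes; the x axis is the log2 of its mean level over the 24 h and 12 h libraries plus 1, and the y axis is the log2 difference, 24 h minus 12 h. Red points are the 723 genes called higher at 24 h, blue points the 1011 called lower, and grey points the genes not called; the largest differences at high levels lie among Sprr1a and Mrgprd.

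The largest changes were taken among called genes with a mean of at least 100 in either group and no overlap between the times, so that the separation of their groups was fixed by the choice. The largest of these rises was that of Sprr1a, a cornified-envelope protein known to be induced in injured sensory neurons. Its levels were 1532, 1579 and 1722 normalized reads at 24 h, against 199, 260.2 and 283 at 12 h, a 6.51-fold ratio of means and a log2 difference of 2.71 ± 0.28 (SE; limma adjusted p = 3.13e-05). The values within each time were close. Shisa9, an auxiliary subunit of AMPA receptors, had 138, 124 and 131 at 24 h, against 23.4, 13.2 and 26.6 at 12 h, a difference of 2.64 ± 0.32 (SE; limma adjusted p = 1.03e-04). Qrfpr, a receptor for RF-amide peptides, stood at 389, 275 and 447 at 24 h, against 89.6, 57.5 and 50.5 at 12 h, and its difference was 2.49 ± 0.28 (SE; limma adjusted p = 6.51e-05). Adra2a, the alpha-2A adrenergic receptor, reached 469.8, 489.5 and 389 at 24 h, against 89.6, 121 and 122 at 12 h, with a difference of 2.02 ± 0.23 (SE; limma adjusted p = 5.46e-05). Il11, a cytokine that signals through gp130, reached 315, 247 and 298 at 24 h, against 66.2, 63.8 and 71.0 at 12 h, a difference of 2.07 ± 0.22 (SE; limma adjusted p = 3.40e-05). Further large rises were those of Dusp9, a phosphatase of MAP kinases (log2 difference 2.15 ± 0.33), Acvr1c, the receptor ALK7 of the activin and nodal family (2.08 ± 0.37), Chst12, a chondroitin sulfotransferase (2.02 ± 0.32), and Ereg, the growth factor epiregulin (2.17 ± 0.57). Chst12 was low in the shallow 12 h replicate 1 library (50.7 against 152 and 123 in the other 12 h libraries). Among these 9 genes, Ereg alone lost its call when 1 library was left out, with the highest adjusted p at 0.0739 for Ereg without the 24 h replicate 3 library.

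The largest falls included a receptor of nonpeptidergic nociceptors, a nicotinic receptor subunit, an immediate early gene and several signalling genes. Slc16a12, a monocarboxylate and creatine transporter, had 9.84, 20.2 and 14.6 normalized reads at 24 h, against 238, 152 and 168 at 12 h, a 12.5-fold lower mean at 24 h and a log2 difference of -3.58 ± 0.26 (SE; limma adjusted p = 8.78e-07). Its lowest level rested on 4 reads in the shallow 24 h replicate 1 library. Mrgprd, the beta-alanine receptor that marks a class of nonpeptidergic nociceptors, had 239, 202 and 209 at 24 h, against 1753, 1679.8 and 2173 at 12 h, an 8.63-fold lower mean at 24 h and a difference of -3.10 ± 0.19 (SE; limma adjusted p = 2.99e-07). Chrna6, a nicotinic acetylcholine receptor subunit, had 36.9, 36.9 and 45.4 at 24 h, against 312, 219.8 and 258 at 12 h, a difference of -2.69 ± 0.20 (SE; limma adjusted p = 1.15e-06). In both genes the 24 h libraries were close to each other. Fosb, a partner of Jun in AP-1, had 145, 176 and 117 at 24 h, against 643, 1139.8 and 1074 at 12 h, a difference of -2.67 ± 0.23 (SE; limma adjusted p = 4.43e-06). Rgs8, which speeds the shut-off of G protein signals, had 39.4, 35.2 and 34.0 at 24 h, against 222, 215 and 266 at 12 h, a difference of -2.66 ± 0.24 (SE; limma adjusted p = 5.93e-06). Prkcq, protein kinase C theta, had 108, 108 and 92.3 at 24 h, against 596, 468 and 518 at 12 h, a difference of -2.34 ± 0.16 (SE; limma adjusted p = 6.72e-07). The other large falls were in Ctxn3, the small membrane protein cortexin 3 (log2 difference -2.47 ± 0.26), Rnf112, a ubiquitin ligase of neurons (-2.34 ± 0.25), Kif11, the mitotic kinesin Eg5 (-2.32 ± 0.34), and Ly86, the MD-1 partner of the receptor RP105 (-2.26 ± 0.16). All 10 of these falls were called in each of the 6 fits that left out 1 library.

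**Figure D2:**
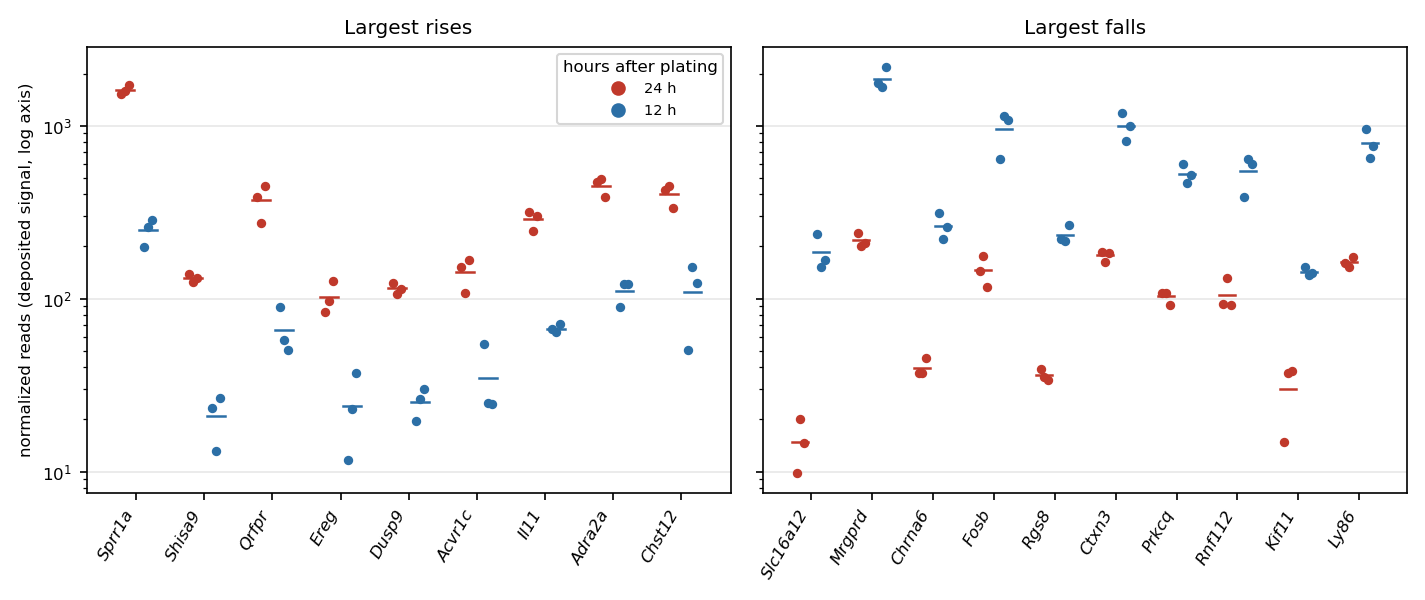
Normalized reads on a log axis for 9 of the largest rises (left) and 10 of the largest falls (right); each point is 1 library, red for 24 h and blue for 12 h, and each line is the mean of 3 libraries. The genes were chosen among those whose groups do not overlap, as for Sprr1a with 1532, 1579 and 1722 at 24 h and 199, 260.2 and 283 at 12 h.

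Many ion channel genes of the sensory neuron membrane were lower at 24 h. Of 15 tested sodium channel subunits 8 were lower (53.3%, against 6.74% of all genes) and 1 was higher, with a median log2 difference of -0.71 against 0.01 over all genes. Scn11a, the persistent nociceptor channel Nav1.9, had 2474, 2519.7 and 2459 normalized reads at 24 h, against 6811, 6105 and 7256 at 12 h, a difference of -1.43 ± 0.11 (SE; limma adjusted p = 1.86e-06), and the 24 h libraries differed by little among themselves. Nociceptor channels Scn10a (-1.04 ± 0.12) and Scn9a (-0.71 ± 0.15) were called lower too. The 1 higher subunit was Scn2a1, a channel of central and immature axons (0.73 ± 0.17). Of 58 tested potassium channel genes 25 were lower (43.1%) and 2 higher, with a median of -0.63. Kcnip2, a modulator of A-type Kv4 channels, had 194, 225 and 202 at 24 h, against 542, 767 and 865 at 12 h, a difference of -1.78 ± 0.23 (SE; limma adjusted p = 1.49e-04), and Kcnk18, the tandem-pore channel TRESK, a difference of -1.53 ± 0.26 (SE; limma adjusted p = 0.00124). Groups overlapped in neither. The higher members were Kcnj10, the glial inward rectifier Kir4.1 (0.72 ± 0.15), and the A-type channel gene Kcna4 (0.53 ± 0.15). Of 19 tested calcium channel subunits 6 were lower (31.6%) and 0 higher, with a median of -0.33. Cacna1i, the T-type pore Cav3.3, had 12.3, 16.3 and 10.5 at 24 h, against 105, 99.9 and 86.8 at 12 h, a difference of -2.82 ± 0.39 (SE; limma adjusted p = 3.32e-04), and Cacng5, a gamma subunit that also escorts AMPA receptors, -1.32 ± 0.35. The fits without 1 library gave between 5 (without the 12 h replicate 3 library) and 11 (without the 12 h replicate 1 library) lower sodium channel genes, between 15 (without the 24 h replicate 1 library) and 30 (without the 12 h replicate 1 library) lower potassium channel genes and between 2 (without the 24 h replicate 1 library) and 7 (without the 12 h replicate 1 library) lower calcium channel genes. Calls lost when 1 library was left out had their highest adjusted p at 0.0626 for Scn2a1 without the 24 h replicate 1 library, 0.120 for Kcna4 without the 24 h replicate 3 library and 0.131 for Cacng5 without the 24 h replicate 1 library.

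Cacna2d2, the gene in the series title, lies on chromosome 9 and encodes the auxiliary subunit Alpha2delta2. It had 59.0, 71.6 and 73.7 normalized reads at 24 h, against 93.5, 119 and 146 at 12 h, a difference of -0.79 ± 0.23 (SE; limma adjusted p = 0.0355), with no overlap between the times and 24 reads behind its lowest value. That call was lost in 5 of the 6 fits that left out 1 library, with the highest adjusted p at 0.156 for Cacna2d2 without the 24 h replicate 1 library. Cacna2d1, the main gabapentin-binding subunit, had 3753, 3092 and 3939 at 24 h, against 5463, 3000.4 and 3923 at 12 h, with overlapping groups and a difference of -0.16 ± 0.18 (SE; limma adjusted p = 0.629) that was not called and became 0.0596 without the 12 h replicate 1 library. Cacna2d3 had 61.5, 97.6 and 85.1 at 24 h, against 109, 116 and 102 at 12 h and was not called either (-0.44 ± 0.26 SE, limma adjusted p = 0.303). Cacna2d4 was below the filter, with at most 4.78 normalized reads in any of the 6 libraries.

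Receptors and channels of nociceptive and itch-sensing endings followed the same direction in many members. Of 35 tested Mrgpr, serotonin, opioid and related receptors 15 were lower (42.9%) and 0 higher, with a median of -0.73. Besides Mrgprd, the itch receptors Mrgpra3 and Mrgprx1 and the opioid receptor genes Oprm1 and Oprl1 were among them. Mrgpra2b had 12.3, 19.8 and 7.29 at 24 h, against 70.1, 73.6 and 94.3 at 12 h, a difference of -2.60 ± 0.66 (SE; limma adjusted p = 0.0185). How reads shared by the near-identical Mrgpra genes were counted is not given in the sources used here. Of 27 tested TRP, acid, heat, ATP and Piezo channels 7 were lower (25.9%) and 1 was higher. Trpc6, a diacylglycerol-gated cation channel, had 22.1, 24.2 and 22.7 normalized reads at 24 h, against 85.7, 70.2 and 71.7 at 12 h, a difference of -1.67 ± 0.23 (SE; limma adjusted p = 2.91e-04), with no overlap. The capsaicin receptor gene Trpv1 and the touch channel gene Piezo2 were among the lower members, and Trpm3, a heat channel, was higher at a small difference of 0.48 ± 0.12. Among 29 tested glutamate and GABA receptor subunits 6 were lower (20.7%) and 3 higher, and kainate receptor subunits differed in direction. Grik1, the main kainate subunit of nociceptors, had 445, 432 and 416 at 24 h, against 1889.7, 1694 and 1692 at 12 h, a difference of -2.03 ± 0.12 (SE; limma adjusted p = 2.48e-07). Its relative Grik3 had 1854, 1705 and 1588 at 24 h, against 849, 974 and 1236 at 12 h, a difference of 0.76 ± 0.15 (SE; limma adjusted p = 0.00352), and Grik2 differed by 0.76 ± 0.17. Grik1 thus lay lower at 24 h in every library, and Grik3 and Grik2 higher in every library. Gria2, an AMPA receptor subunit, differed by -1.46 ± 0.22. Without 1 library the lower members numbered between 7 (without the 24 h replicate 1 library) and 17 (without the 12 h replicate 1 library) in the Mrgpr list and between 4 (without the 24 h replicate 1 library) and 10 (without the 12 h replicate 1 library) in the TRP list. Calls were lost with adjusted p up to 0.0708 for Mrgpra2b without the 24 h replicate 3 library, 0.0741 for Trpm3 without the 24 h replicate 2 library and 0.0635 for Grik2 without the 24 h replicate 1 library.

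Peptide transmitters were called in both directions, more often lower. Gal, galanin, a peptide raised in axotomized sensory neurons, had 509, 376 and 629 normalized reads at 24 h, against 117, 147 and 154 at 12 h, a difference of 1.83 ± 0.26 (SE; limma adjusted p = 4.19e-04), with no overlap. Calcb, which encodes the beta form of the vasodilator CGRP, had 411, 358 and 456 at 24 h, against 1282, 1029 and 1084 at 12 h, a difference of -1.47 ± 0.14 (SE; limma adjusted p = 9.18e-06). Tac1, the precursor of substance P, had 689, 546 and 846 at 24 h, against 2307, 1431 and 1586 at 12 h, a difference of -1.35 ± 0.20 (SE; limma adjusted p = 5.55e-04). Both were lower in every 24 h library. In all, 7 of 26 tested neuropeptide genes were lower (26.9%) and 2 higher, the other rise being Pam, the enzyme that amidates peptides (0.46 ± 0.11). Among 22 genes of large-fibre neurons, which serve touch and limb position, 5 were lower (22.7%) and 1 higher, with a median of -0.61. Fam19a1, a secreted chemokine-like protein, differed by -1.19 ± 0.17 and Etv1, a transcription factor of muscle afferents, by -0.86 ± 0.25. The higher one, Spp1 or osteopontin, is also made by glia and macrophages and had 3758, 4738 and 4907 at 24 h, against 1889.7, 1938 and 2437 at 12 h, a difference of 1.10 ± 0.18 (SE; limma adjusted p = 0.00120). Of 31 sensory neuron transcription factors 7 were lower (22.6%) and 1 higher. Isl2, a LIM homeodomain factor, differed by -1.36 ± 0.25 and Bcl11b by -0.94 ± 0.25, and Onecut2, a cut homeodomain factor, was higher (0.70 ± 0.13). Without 1 library the lower members numbered between 1 (without the 24 h replicate 1 library) and 8 (without the 12 h replicate 1 library) for large-fibre genes and between 3 (without the 24 h replicate 1 library) and 9 (without the 12 h replicate 1 library) for transcription factors. The highest adjusted p of lost calls were 0.0617 for Pam without the 24 h replicate 1 library, 0.199 for Etv1 without the 24 h replicate 1 library and 0.0861 for Bcl11b without the 24 h replicate 1 library.

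Genes of the release machinery and of mature axons were also called lower more often than higher. Of 51 tested presynaptic genes 17 were lower (33.3%) and 1 higher, with a median of -0.46. Rab3a, a vesicle GTPase, had 787, 1111 and 903 normalized reads at 24 h, against 1305, 2230.4 and 2097 at 12 h, a difference of -0.98 ± 0.21 (SE; limma adjusted p = 0.00718). Ppfia4, a liprin of the active zone, differed by -1.21 ± 0.28. No overlap was seen in either, and the higher member was the vesicle priming gene Unc13c (0.49 ± 0.13). Of 27 neurofilament and mature axon genes 6 were lower (22.2%) and 0 higher, with a median of -0.31. Sncg, gamma-synuclein, had 3930.2, 3909 and 3804 at 24 h, against 7154, 8195 and 6814 at 12 h, a difference of -0.92 ± 0.11 (SE; limma adjusted p = 1.02e-04). Prph, the intermediate filament peripherin, differed by -0.77 ± 0.16. In the DLK-JNK list, a stress signal that runs from cut axon to cell body, 4 of 23 genes were lower (17.4%) and 0 higher. They included the neuronal kinase gene Mapk10, or JNK3 (-0.85 ± 0.13), and Fbxo45, a ligase subunit that acts in axon degeneration (-0.60 ± 0.11). Left-out libraries moved the lower counts to values between 10 (without the 24 h replicate 1 library) and 28 (without the 12 h replicate 1 library) for presynaptic genes, between 3 (without the 24 h replicate 1 library) and 16 (without the 12 h replicate 1 library) for axon genes and between 3 (without the 24 h replicate 1 library) and 8 (without the 12 h replicate 1 library) for the DLK-JNK list. Lost calls had highest adjusted p of 0.0525 for Rab3a without the 24 h replicate 1 library, 0.0699 for Ppfia4 without the 24 h replicate 1 library and 0.151 for Unc13c without the 24 h replicate 1 library.

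General neuron markers moved in the same direction as these lists. They share genes with them, such as Tac1, Prph, Scn9a and Scn10a, so part of this likeness was fixed by the lists. Of 17 tested neuron markers 8 were lower (47.1%) and 0 higher, with a median of -0.58, and their summed level was 139725, 171675 and 162655 at 24 h, against 188436, 248990.0 and 269451 at 12 h. Every 24 h sum lay below every 12 h sum. Rbfox3, the nuclear antigen NeuN, had 548, 805 and 636 at 24 h, against 923, 1659.8 and 1794 at 12 h, a difference of -1.10 ± 0.21 (SE; limma adjusted p = 0.00303). In bulk samples fewer neurons and less neuronal RNA per cell cannot be told apart, and the part of the neuron markers in the lower channel, receptor and synaptic genes was not tested. Some neuronal genes were not called. Neither P2rx3, the ATP receptor of nociceptors, with 11001, 9214 and 10531 at 24 h, against 9487, 8077 and 9855 at 12 h, nor Chrnb2, a nicotinic subunit, with 1810.2, 1938 and 1815 at 24 h, against 1344, 1799 and 2079 at 12 h, was called (0.17 ± 0.14 SE, limma adjusted p = 0.480 and 0.11 ± 0.14 SE, limma adjusted p = 0.665), and the groups of both overlapped. Both were picked with their values known.

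**Figure D3:**
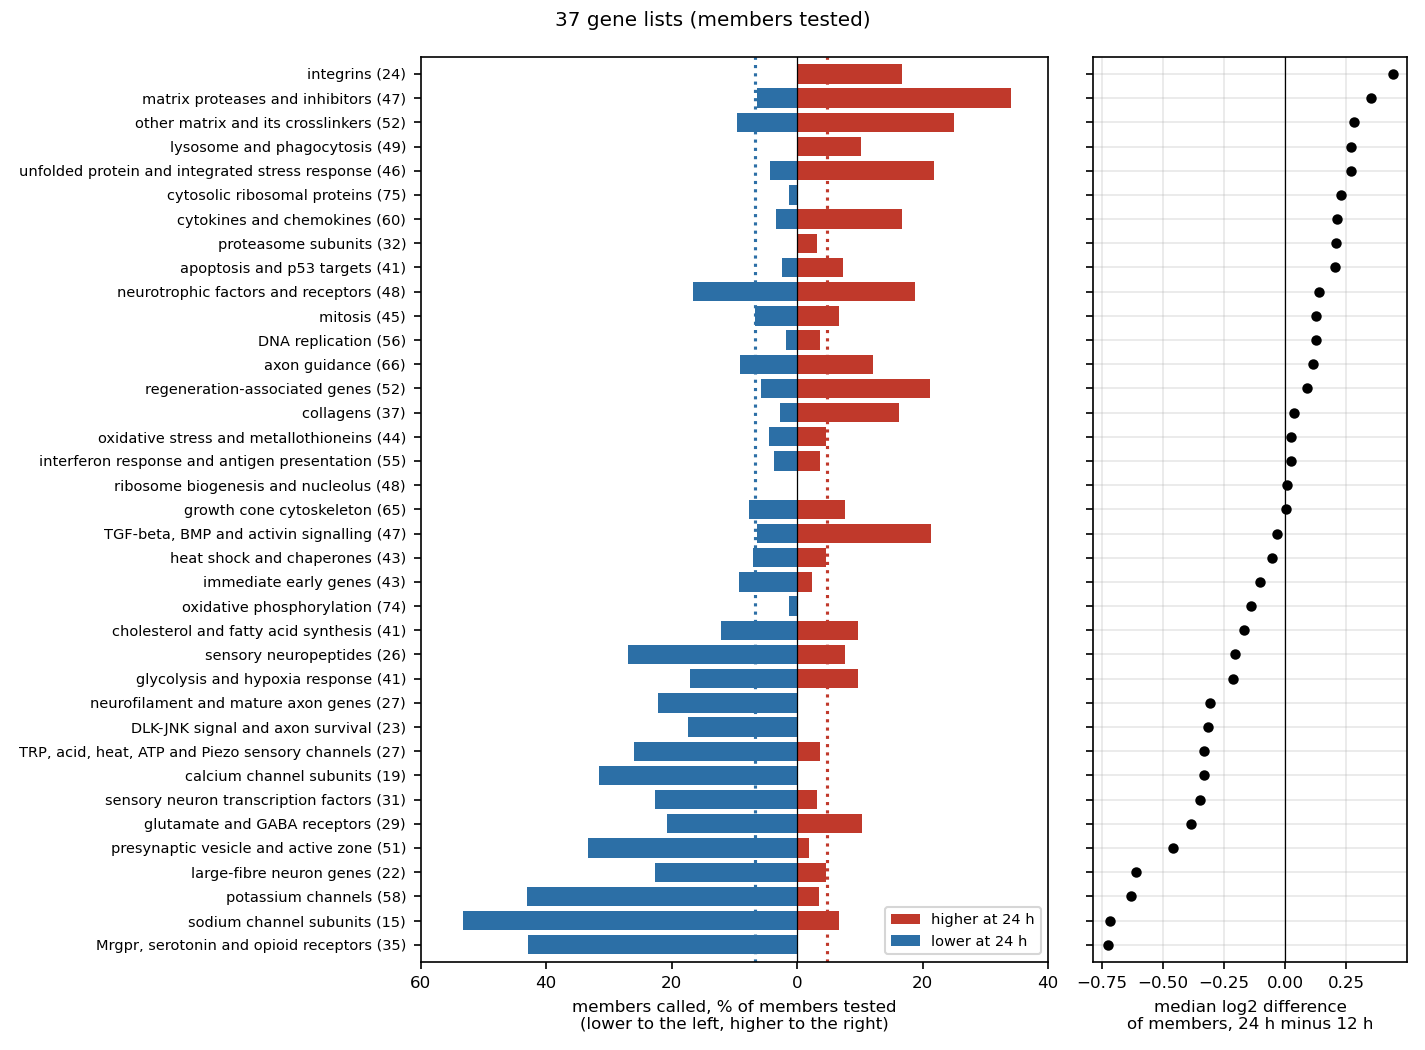
Left, the share of tested members called higher (red, to the right) or lower (blue, to the left) at 24 h for 37 gene lists, with the number tested in brackets; dotted lines mark the shares over all genes, 4.82% higher and 6.74% lower. Right, the median log2 difference of the members, which runs from -0.73 for Mrgpr, serotonin and opioid receptors to 0.44 for integrins.

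Regeneration-associated genes did not move as 1 block. Of 52 tested members 11 were higher (21.2%, against 4.82% of all genes) and 3 lower (5.77%), with a median of 0.09. The higher ones were Sprr1a, Gal, Itga7, Ecel1, Lif, Chl1, Tuba1a, Itgb1, Hspb1, Plaur and Sema6a. Lif, leukaemia inhibitory factor, a gp130 cytokine released after nerve injury, had 718, 722 and 691 normalized reads at 24 h, against 257, 309.9 and 426 at 12 h, a difference of 1.13 ± 0.17 (SE; limma adjusted p = 5.21e-04). Nrn1, the neurite-promoting protein neuritin, had 1355, 1704 and 1737 at 24 h, against 5061, 4604 and 5058 at 12 h, a difference of -1.62 ± 0.12 (SE; limma adjusted p = 8.78e-07), and Stmn2, the microtubule regulator SCG10, had 13239, 13476 and 16590.5 at 24 h, against 22076, 20236 and 22324 at 12 h, a difference of -0.58 ± 0.12 (SE; limma adjusted p = 0.00483). The groups overlapped in none of these. Well-known members that were not called, named with their values known, were Atf3, the injury-induced transcription factor, with 9139, 9638 and 9947 at 24 h, against 9378, 12222 and 14422 at 12 h, and Gap43, the growth cone protein, with 2932, 2429 and 3135 at 24 h, against 2961, 3229 and 3789.7 at 12 h (-0.31 ± 0.13 SE, limma adjusted p = 0.159 and -0.23 ± 0.12 SE, limma adjusted p = 0.245). Hspb1, a small heat shock protein, was called at 0.53 ± 0.15. Without 1 library the higher members numbered between 8 (without the 24 h replicate 1 library) and 13 (without the 12 h replicate 1 library) and the lower between 2 (without the 24 h replicate 1 library) and 7 (without the 12 h replicate 1 library).

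Among 65 growth cone cytoskeleton genes 5 were higher and 5 lower (7.69% each, against 4.82% and 6.74% of all genes). Their median was 0.00. Tubb6, a broadly expressed beta-tubulin, had 1473, 1584 and 1351 normalized reads at 24 h, against 573, 859.6 and 979 at 12 h, a difference of 0.90 ± 0.17 (SE; limma adjusted p = 0.00331), and Dpysl4, a collapsin response mediator, differed by 0.86 ± 0.23. Tmsb10, an actin-sequestering thymosin, was lower (-0.59 ± 0.15). Of 66 axon guidance genes 8 were higher (12.1%) and 6 lower (9.09%). Ephb2, an ephrin-B receptor, and Plxnb2, a receptor for class 4 semaphorins, were higher (1.30 ± 0.35 and 1.05 ± 0.24). Epha4, an ephrin receptor, and Ntng1, netrin-G1, were lower (-1.28 ± 0.31 and -0.91 ± 0.19). Ephb2 had 130.4, 138 and 112 at 24 h, against 23.4, 67.7 and 81.3 at 12 h, with the shallow 12 h replicate 1 library lowest. The higher guidance genes numbered between 2 (without the 24 h replicate 1 library) and 9 (without the 12 h replicate 3 library) when 1 library was left out, the lower guidance genes between 3 (without the 12 h replicate 3 library) and 8 (without the 12 h replicate 1 library), and the lower cytoskeleton genes between 1 (without the 24 h replicate 2 library) and 10 (without the 12 h replicate 1 library). The calls of Hspb1 and Tmsb10 were lost in 5 of the 6 fits that left out 1 library. Those of Dpysl4 and Epha4 were lost in 3, and those of Ephb2 and Plxnb2 in 2. Without the 24 h replicate 1 library the adjusted p reached 0.132 for Hspb1, 0.0944 for Ephb2 and 0.0661 for Plxnb2. The highest adjusted p was 0.0959 for Dpysl4 without the 24 h replicate 2 library. It was 0.0822 for Tmsb10 without the 12 h replicate 3 library and 0.0651 for Epha4 without the 24 h replicate 3 library.

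Secreted signals and their receptors were called in both directions. Of 48 neurotrophic factor and receptor genes 9 were higher (18.8%) and 8 lower (16.7%). Ereg, a ligand of the EGF receptor family, had 83.6, 97.1 and 126 normalized reads at 24 h, against 11.7, 22.9 and 36.9 at 12 h, a difference of 2.17 ± 0.57 (SE; limma adjusted p = 0.0215). Fgf13, an intracellular FGF-like partner of sodium channels, had 1970.0, 1857 and 2479 at 24 h, against 6989.9, 4961 and 5890.2 at 12 h, a difference of -1.50 ± 0.16 (SE; limma adjusted p = 2.97e-05). Fgf9, a secreted one, differed by -1.43 ± 0.24. The ligand gene Gdnf and the receptor genes Gfra3, Met, Erbb2, Erbb3 and Lifr were called higher, and the receptor genes Ntrk3, Gfra2 and Igf1r lower. In the TGF-beta, BMP and activin list 10 of 47 were higher (21.3%) and 3 lower, while the median was -0.03, which turned positive after quantile normalization (0.03) and without both shallow libraries (0.02). The higher ones included the ligand genes Bmp2, Inhbb and Tgfb1, the antagonist Fst, the receptor genes Acvr1c, Tgfbr2 and Tgfbr3, the latent TGF-beta binding protein gene Ltbp1 and the protease Bmp1. Acvr1c had 152, 108 and 167 at 24 h, against 54.5, 24.9 and 24.6 at 12 h, a difference of 2.08 ± 0.37 (SE; limma adjusted p = 0.00189). Ctgf, a matricellular target of TGF-beta, and Tgfb3, a ligand, were lower (-1.02 ± 0.24 and -0.79 ± 0.22). Of 60 cytokine and chemokine genes 10 were higher (16.7%) and 2 lower. Cxcl5, a neutrophil chemoattractant, had 155, 163 and 242 at 24 h, against 113, 47.8 and 34.2 at 12 h, a difference of 1.66 ± 0.33 (SE; limma adjusted p = 0.00410). In the fit with all 24 libraries of the series the call of Cxcl5 was lost (adjusted p = 0.0519). Cxcl1 and Cxcl3 were called in the same direction. Ccl7, a monocyte chemoattractant, and Cxcl10, an interferon-induced chemokine, were lower (-0.93 ± 0.21 and -0.74 ± 0.19). Without 1 library the higher members numbered between 5 (without the 24 h replicate 1 library) and 10 (without the 12 h replicate 1 library), between 5 (without the 24 h replicate 2 library) and 10 (without the 12 h replicate 1 library) and between 6 (without the 24 h replicate 1 library) and 10 (without the 12 h replicate 1 library) in these 3 lists, and the lower neurotrophic factor and receptor genes between 2 (without the 12 h replicate 3 library) and 11 (without the 12 h replicate 1 library). Lost calls reached adjusted p of 0.0533 for Ctgf without the 24 h replicate 3 library, 0.179 for Tgfb3 without the 24 h replicate 1 library, 0.0661 for Ccl7 without the 24 h replicate 1 library and 0.107 for Cxcl10 without the 24 h replicate 2 library.

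Matrix proteases and other matrix genes held the largest shares of higher members among the 37 gene lists. Of 47 matrix proteases and inhibitors 16 were higher (34.0%) and 3 lower, with a median of 0.35. Serpine2, protease nexin 1, an inhibitor of thrombin and plasminogen activators, had 3195, 3347 and 2905 normalized reads at 24 h, against 1371, 1185 and 1012 at 12 h, a difference of 1.41 ± 0.12 (SE; limma adjusted p = 5.59e-06). Among the metalloprotease genes Mmp2, Mmp3, Mmp11, Mmp13, Mmp16, Mmp19 and Mmp28 were called higher, and Adamts8 was lower (-1.39 ± 0.18). Mmp11, stromelysin 3, had 95.9, 81.7 and 73.7 at 24 h, against 27.3, 40.0 and 43.7 at 12 h, a difference of 1.18 ± 0.34 (SE; limma adjusted p = 0.0359). Adam12, a membrane protease, was lower by a smaller difference of -0.73 ± 0.22. Integrins, the receptors that bind laminin and other matrix proteins, had 4 of 24 members higher (16.7%) and 0 lower, with a median of 0.44. Itga7, a laminin receptor subunit induced in injured neurons and present in vascular cells, had 8375, 8409 and 7062 at 24 h, against 2256, 3317 and 3335 at 12 h, a difference of 1.44 ± 0.17 (SE; limma adjusted p = 7.01e-05). All 24 h libraries were more than 2-fold above all 12 h libraries for Itga7, and its partner Itgb1 was called too. Itgb5 was also called higher (log2 difference 0.94). Of 37 collagen genes 6 were higher (16.2%) and 1 lower, which was Col19a1 (log2 difference -0.93). Col5a3, a fibrillar collagen, had 1412, 1429.9 and 1284 at 24 h, against 658, 715 and 809 at 12 h, a difference of 0.92 ± 0.13 (SE; limma adjusted p = 4.10e-04). Among 52 other matrix genes 13 were higher (25.0%) and 5 lower. Fbln5, an elastic fibre protein, had 698, 722 and 694 at 24 h, against 269, 275 and 281 at 12 h, a difference of 1.35 ± 0.11 (SE; limma adjusted p = 2.59e-06), with nearly equal values within each time. Lox, a matrix crosslinker, and Bcan, the proteoglycan brevican, were lower (-0.93 ± 0.20 and -1.10 ± 0.26). Higher members without 1 library numbered between 8 (without the 24 h replicate 1 library) and 14 (without the 12 h replicate 1 library) among proteases, between 9 (without the 24 h replicate 1 library) and 13 (without the 12 h replicate 2 library) among other matrix genes, between 2 (without the 24 h replicate 1 library) and 7 (without the 12 h replicate 1 library) among integrins and between 2 (without the 24 h replicate 1 library) and 7 (without the 12 h replicate 1 library) among collagens. Lower other matrix genes numbered between 0 (without the 24 h replicate 1 library) and 5 (without the 12 h replicate 1 library). The largest adjusted p of lost calls were 0.150 for Mmp11 without the 24 h replicate 1 library, 0.200 for Adam12 without the 24 h replicate 1 library, 0.0767 for Itgb5 without the 24 h replicate 2 library, 0.0552 for Lox without the 24 h replicate 1 library, 0.0601 for Bcan without the 12 h replicate 3 library and 0.136 for Col19a1 without the 24 h replicate 1 library. Mmp11 lost its call in each of the 6 fits that left out 1 library, and Adam12 in 5 of them. Fibroblast and endothelial markers, which also rose in part, are given further on, and their part in these lists was not tested.

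The called members of the unfolded protein response list were of 2 kinds. Cells sense misfolded protein in the endoplasmic reticulum by IRE1, ATF6 and PERK, and the first pair induce chaperones while PERK feeds the integrated stress response. Of 46 tested members 10 were higher (21.7%) and 2 lower, with a median of 0.27. All 10 higher genes belong to folding or degradation in the endoplasmic reticulum: Creld2, Pdia4, Sdf2l1, Pdia6, Manf, Calr, Hyou1, Dnajb11, Edem1 and Sel1l. Pdia4, a disulfide isomerase, had 999, 928 and 1011 normalized reads at 24 h, against 487, 452 and 472 at 12 h, a difference of 1.06 ± 0.10 (SE; limma adjusted p = 1.85e-05), and its libraries were close within each time. Creld2, a secreted chaperone, had 76.2, 63.3 and 62.4 at 24 h, against 3.90, 32.7 and 19.1 at 12 h, a difference of 2.19 ± 0.57 (SE; limma adjusted p = 0.0206), with 1 read behind its lowest value. Ppp1r15a, or GADD34, and Ddit3, or CHOP, both targets of the integrated stress response, were the 2 lower genes. Ppp1r15a had 3524, 4127 and 3583 at 24 h, against 4824, 7437 and 8372 at 12 h, a difference of -0.84 ± 0.17 (SE; limma adjusted p = 0.00485). Ddit3 had 1040.4, 1261 and 996 at 24 h, against 1294, 1919 and 1952 at 12 h, a difference of -0.63 ± 0.17 (SE; limma adjusted p = 0.0226). The central chaperone gene Hspa5, or BiP, named with its values known, was not called, with 14818, 15751 and 17488 at 24 h, against 18823, 13698 and 14522 at 12 h (0.04 ± 0.13 SE, limma adjusted p = 0.883). Higher members numbered between 5 (without the 24 h replicate 1 library) and 15 (without the 12 h replicate 1 library) when 1 library was left out. The calls of Creld2 and Ddit3 were lost with adjusted p of 0.0907 for Creld2 without the 24 h replicate 1 library and 0.103 for Ddit3 without the 24 h replicate 1 library. That of Ddit3 was lost in 4 of the 6 fits that left out 1 library, and also after the GC correction.

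The promoters of some of these genes carry the endoplasmic reticulum stress element, the site that ATF6 is known to bind together with NF-Y, spelled CCAAT, then any 9 bases, then CCACG. It was searched on both strands of RefSeq promoter windows (GRCm38.p6, 250 bases before to 50 after each start), and it does not overlap the AP-1 motif searched below. Of 27025 genes with a window 37 (0.137%) held it, and 8 of 40 list members with a window did. Those 8 were Calr, Creld2 and Pdia6, which were called higher, and Canx, Dnajc3, Hsp90b1, Hspa5 and Syvn1, which were not called. Of the called higher members 8 had a window. The windows of the first 3 are printed because they are the called genes with the element, which is in capitals. A match is a description of letters, not of binding. In Creld2 (chr15:88819396-88819695, plus strand) and Calr (chr8:84846882-84847181, minus strand) it reads on the opposite strand, as the reverse complement, from position -126 and -162 relative to the start. In Pdia6 (chr12:17266339-17266638, plus strand) it reads forward from position -98.
Creld2: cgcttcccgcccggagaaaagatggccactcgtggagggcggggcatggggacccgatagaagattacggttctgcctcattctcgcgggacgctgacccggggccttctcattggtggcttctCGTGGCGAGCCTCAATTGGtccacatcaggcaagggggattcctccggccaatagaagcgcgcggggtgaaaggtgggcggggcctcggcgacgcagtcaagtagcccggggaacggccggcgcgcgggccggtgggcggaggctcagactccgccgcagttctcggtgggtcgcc
Pdia6: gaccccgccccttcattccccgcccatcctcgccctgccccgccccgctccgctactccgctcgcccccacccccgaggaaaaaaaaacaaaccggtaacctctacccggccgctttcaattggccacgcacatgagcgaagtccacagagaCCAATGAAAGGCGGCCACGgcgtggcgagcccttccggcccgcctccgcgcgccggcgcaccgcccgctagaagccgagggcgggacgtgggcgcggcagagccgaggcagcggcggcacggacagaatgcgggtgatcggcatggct
Calr: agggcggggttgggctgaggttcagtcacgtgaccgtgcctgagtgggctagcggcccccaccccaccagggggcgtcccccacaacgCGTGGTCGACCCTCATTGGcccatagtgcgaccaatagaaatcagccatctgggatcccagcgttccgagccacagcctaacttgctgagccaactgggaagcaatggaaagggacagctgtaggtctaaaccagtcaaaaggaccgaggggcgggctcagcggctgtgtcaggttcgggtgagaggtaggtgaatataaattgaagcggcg
Pdia6 had 967, 885 and 1023 at 24 h, against 643, 532 and 454 at 12 h and Calr 4666, 4419.8 and 4811 at 24 h, against 3094, 2625 and 2765 at 12 h, with differences of 0.83 ± 0.13 (SE; limma adjusted p = 8.52e-04) and 0.71 ± 0.11 (SE; limma adjusted p = 5.55e-04). The levels of both lay higher at 24 h in every library.

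The AP-1 site TGACTCA, bound by Fos and Jun family dimers, was searched in the same way for the regeneration-associated genes, since the AP-1 gene Fosb was among the largest falls and Sprr1a the largest rise. It was held by 6 of 45 members with a window (13.3%) and by 1607 of all 27025 genes (5.95%). The members were Sprr1a, Lif and Plaur, called higher, and Anxa2, Il6 and Nts, not called. The window of Sprr1a (chr3:92485832-92486131, minus strand) holds it at 2 places, in capitals, on the opposite strand, the first from position -146.
Sprr1a: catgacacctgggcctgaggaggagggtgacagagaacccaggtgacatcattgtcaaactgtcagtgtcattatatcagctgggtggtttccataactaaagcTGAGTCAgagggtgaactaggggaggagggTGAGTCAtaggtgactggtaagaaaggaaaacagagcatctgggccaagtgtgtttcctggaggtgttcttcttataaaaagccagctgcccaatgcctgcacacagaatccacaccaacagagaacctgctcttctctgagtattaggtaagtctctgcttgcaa
Immediate early genes are the first genes switched on by a stimulus. Of 43 tested, 4 were lower (9.30%, against 6.74% of all genes) and 1 higher (2.33%, against 4.82%). Besides Fosb these were Fos, Maff and Dusp5, with Dusp5, a nuclear phosphatase of ERK, at a difference of -0.99 ± 0.28. Dusp6, a cytoplasmic phosphatase of ERK, was the higher one (0.49 ± 0.12). Without 1 library the lower members numbered between 1 (without the 24 h replicate 1 library) and 8 (without the 12 h replicate 1 library), and adjusted p of lost calls reached 0.170 for Dusp5 without the 24 h replicate 1 library and 0.0687 for Dusp6 without the 24 h replicate 1 library.

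Cell death genes were called in both directions. Of 41 apoptosis and p53 target genes 3 were higher (7.32%, against 4.82% of all genes) and 1 lower (2.44%, against 6.74%), with a median of 0.20. Hrk, a BH3-only protein induced in neurons deprived of trophic factor, had 63.9, 69.4 and 60.8 normalized reads at 24 h, against 3.90, 14.1 and 20.5 at 12 h, a difference of 2.49 ± 0.49 (SE; limma adjusted p = 0.00386), with 1 read behind its lowest 12 h value. Pmaip1, or Noxa, had 524, 478 and 585 at 24 h, against 284, 250.5 and 291 at 12 h, a difference of 0.94 ± 0.14 (SE; limma adjusted p = 5.87e-04), and Bcl2, a survival gene, was lower by a small difference of -0.45 ± 0.12. Each was separate between the times, and the call of Pmaip1 was lost in the fit with all 24 libraries of the series (adjusted p = 0.0718). The higher members numbered between 2 (without the 24 h replicate 1 library) and 10 (without the 12 h replicate 1 library) without 1 library, and the call of Bcl2 was lost with adjusted p of 0.113 for Bcl2 without the 12 h replicate 3 library.

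Metabolic lists had called members in both directions. In the glycolysis and hypoxia list 4 of 41 genes were higher (9.76%) and 7 lower (17.1%). The transporters of lactate and glucose were higher. Slc16a3, the lactate exporter MCT4, had 148, 110.3 and 86.7 normalized reads at 24 h, against 39.0, 34.6 and 25.3 at 12 h, a difference of 1.76 ± 0.31 (SE; limma adjusted p = 0.00169). Slc2a1, the glucose transporter GLUT1, had 3790.1, 4045 and 3571 at 24 h, against 1870.2, 2185 and 2299.9 at 12 h, a difference of 0.85 ± 0.12 (SE; limma adjusted p = 5.11e-04). The muscle-type glycolytic gene Pfkm and the mitochondrial gene Higd1a were lower (-0.77 ± 0.16 and -0.77 ± 0.17). In the sterol and fatty acid list 4 of 41 genes were higher (9.76%) and 5 lower (12.2%), the higher including the desaturase genes Fads1, Fads2 and Fads3. Fads3 differed by 0.68 ± 0.10 and Fads2 by 0.76 ± 0.23, whereas the elongase gene Elovl6 (-0.57 ± 0.11) and the sterol carrier gene Stard4 (-0.69 ± 0.15) were lower. Antioxidant genes were called at shares near those of all genes, 2 of 44 each way (4.55% higher, against 4.82%, and 4.55% lower, against 6.74%). Extracellular Sod3 and the peroxiredoxin gene Prdx1 were higher (1.03 ± 0.21 and 0.78 ± 0.21), and mitochondrial Sod2 and the metallothionein gene Mt3 lower (-0.39 ± 0.12 and -1.16 ± 0.18). Of 43 heat shock genes 2 were higher (4.65%) and 3 lower (6.98%), also near the shares of all genes. Among them were Hspa2 (0.73 ± 0.14), Hspa12a (-0.51 ± 0.11) and the steroid receptor co-chaperone gene Fkbp4 (-0.48 ± 0.12). Single libraries moved the lower counts to values between 3 (without the 24 h replicate 1 library) and 12 (without the 12 h replicate 1 library) in the glycolysis list and between 2 (without the 24 h replicate 2 library) and 9 (without the 12 h replicate 1 library) in the sterol list. Lost calls had highest adjusted p of 0.179 for Fads2 without the 12 h replicate 3 library, 0.106 for Prdx1 without the 12 h replicate 3 library, 0.183 for Sod2 without the 24 h replicate 1 library, 0.0628 for Hspa12a without the 24 h replicate 1 library and 0.0894 for Fkbp4 without the 24 h replicate 1 library.

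Several lists of housekeeping machinery had few called genes, where 11.6% of all genes were called. Of 74 oxidative phosphorylation genes 0 were higher and 1 lower (Ndufv3, -0.53 ± 0.16), although 58 had negative differences (median -0.14). Of 75 cytosolic ribosomal protein genes 0 were higher and 1 lower (Rpl22, -0.47 ± 0.11), although the median ribosomal protein gene differed by 0.23. Without the 12 h replicate 1 library 6 ribosomal protein genes were higher. Of 48 ribosome biogenesis genes 0 were called by limma and 0 by edgeR, 2 were called by DESeq2, and 4 had an unadjusted limma p under 0.05. Nucleolin, Ncl, the most abundant of them, had 6604, 6098 and 7342 normalized reads at 24 h, against 8833, 6166 and 6541 at 12 h, with overlapping groups and a difference of -0.09 ± 0.14 (SE; limma adjusted p = 0.733) whose sign changed under 4 alternatives. Lysosome genes had 5 of 49 members higher (10.2%, against 4.82% of all genes) and 0 lower, with a median of 0.27. Among the higher ones were Grn, progranulin (0.82 ± 0.15), and Gusb, beta-glucuronidase (0.66 ± 0.16). Of 32 proteasome genes 1 was higher (Psmd11, 0.51 ± 0.15) and 0 lower, although 27 had positive differences (median 0.21). Without 1 library the higher lysosome genes numbered between 1 (without the 24 h replicate 1 library) and 10 (without the 12 h replicate 1 library), and adjusted p of lost calls reached 0.129 for Ndufv3 without the 24 h replicate 3 library, 0.0660 for Rpl22 without the 24 h replicate 1 library, 0.10 for Gusb without the 24 h replicate 1 library and 0.140 for Psmd11 without the 24 h replicate 3 library. Of 55 interferon and antigen presentation genes 2 were higher, B2m and H2-Q4 (0.69 ± 0.20 and 0.52 ± 0.13), and 2 lower, Mx1 and Cmpk2 (-0.92 ± 0.28 and -0.90 ± 0.16). B2m, which pairs with class I molecules, had 8908, 7336 and 9536 at 24 h, against 7898, 4426 and 4271 at 12 h, so the 12 h replicate 1 library lay within the range of the 24 h libraries, and its call was lost with adjusted p of 0.154 for B2m without the 12 h replicate 3 library. The calls of H2-Q4 and Mx1 were lost too, with 0.0709 for H2-Q4 without the 24 h replicate 1 library and 0.166 for Mx1 without the 12 h replicate 3 library.

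Cell cycle genes did not move together. Of 56 DNA replication genes 2 were higher (3.57%, against 4.82% of all genes) and 1 lower (1.79%, against 6.74%). The higher ones were the D-type cyclins Ccnd1 and Ccnd2. Ccnd1 had 6999.7, 6306 and 6033 normalized reads at 24 h, against 4103, 3483 and 3761 at 12 h, a difference of 0.77 ± 0.12 (SE; limma adjusted p = 6.95e-04), and Ccnd2 differed by 0.73 ± 0.12. E2f1, an S-phase transcription factor, was lower (-0.79 ± 0.18). Of 45 mitosis genes 3 were higher and 3 lower (6.67% each), near the shares of all genes. Kif11 had 14.8, 37.4 and 38.1 at 24 h, against 152, 136 and 141 at 12 h, a difference of -2.32 ± 0.34 (SE; limma adjusted p = 4.75e-04). Kif23, a kinesin of cytokinesis, differed by -1.85 ± 0.48. The chromosome proteins Incenp and Smc2 were higher (0.77 ± 0.22 and 0.77 ± 0.22). Without both shallow libraries 0 mitosis genes were higher and 1 lower by limma, and leaving out 1 library lost calls with adjusted p up to 0.0680 for E2f1 without the 24 h replicate 1 library, 0.103 for Kif23 without the 24 h replicate 1 library, 0.110 for Incenp without the 24 h replicate 3 library and 0.153 for Smc2 without the 24 h replicate 1 library.

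Markers of the other cells that a ganglion culture can hold were detected at both times. Endothelial markers had the largest share of higher members, with 7 of 16 higher (43.8%) and 0 lower and a median of 0.69. Their summed level was 9056, 8565 and 5860.4 at 24 h, against 5272, 6052 and 4989 at 12 h, so the 24 h replicate 3 library lay within the 12 h range. Plvap, a protein of endothelial fenestrae, had 932, 926 and 526 normalized reads at 24 h, against 175, 355 and 262 at 12 h, a difference of 1.59 ± 0.25 (SE; limma adjusted p = 7.54e-04), and Tie1, an endothelial receptor, differed by 1.06 ± 0.25. The number of higher endothelial markers was between 1 (without the 24 h replicate 1 library) and 9 (without the 24 h replicate 3 library) when 1 library was left out, and 3 without both shallow libraries. Macrophage markers had 3 of 15 higher (20.0%) and 0 lower, with sums of 1284, 1063 and 1102 at 24 h, against 791, 817 and 752 at 12 h, which do not overlap. Csf1r, the receptor of the macrophage growth factor CSF1, differed by 1.22 ± 0.28 and the lysozyme gene Lyz2 by 0.96 ± 0.21. Without the 24 h replicate 1 library 0 macrophage markers were called. Fibroblast markers had 3 of 16 higher (18.8%) and 0 lower, among them Col1a2 and Postn (0.83 ± 0.13 and 0.83 ± 0.17), and sums of 6321, 7146 and 7167 at 24 h, against 5669, 5310.3 and 4976 at 12 h, again without overlap. Of 11 pericyte markers 1 was higher (9.09%, against 4.82% of all genes), Abcc9 (1.19 ± 0.26). The calls of Tie1, Csf1r, Lyz2 and Abcc9 were lost with adjusted p of 0.0782 for Tie1 without the 24 h replicate 1 library, 0.0533 for Csf1r without the 24 h replicate 1 library, 0.0626 for Lyz2 without the 24 h replicate 1 library and 0.0515 for Abcc9 without the 24 h replicate 1 library.

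Glial markers were called in both directions. Of 15 repair Schwann cell markers 4 were higher (26.7%) and 3 lower (20.0%), with a median of 0.29. Differences were positive in 10 and negative in 5 of them. Their sums, in contrast, were lower, at 34917, 37597 and 35074 at 24 h, against 41145, 44120.0 and 50775 at 12 h. The part of neurons in these sums was not tested. Gfap, a filament raised in reactive glia, had 403, 349 and 282 normalized reads at 24 h, against 136, 139 and 138 at 12 h, a difference of 1.30 ± 0.16 (SE; limma adjusted p = 1.49e-04). Erbb3, the glial receptor for neuregulin, differed by 1.04 ± 0.17. Scn7a, a glial and neuronal sodium channel-like gene, and S100b, a calcium-binding protein of glia, were lower (-0.92 ± 0.14 and -0.72 ± 0.14). Of 15 satellite glia markers 3 were higher (20.0%) and 2 lower, and Lgi4, a secreted myelination factor, had 1702, 1770.0 and 1488 at 24 h, against 604, 786 and 858 at 12 h, a difference of 1.15 ± 0.13 (SE; limma adjusted p = 7.01e-05). The sums of satellite glia markers overlapped, at 41870.1, 39576 and 35242 at 24 h, against 35347, 41126 and 36737 at 12 h. Of 16 myelinating Schwann cell markers 1 was higher and 1 lower (6.25% each, against 4.82% and 6.74% of all genes). The lower one was Prx, or periaxin (-1.01 ± 0.25). Its call was lost at an adjusted p of 0.0710 without the 24 h replicate 3 library. Aldoc, a satellite glia marker called lower, lost its call at 0.124 without the 24 h replicate 1 library. Among lymphocyte and neutrophil markers 3 of 17 in the table passed the filter and Nkg7 was at 0 in all 6 libraries. All 3 had negative differences (median -1.25), and 1 was called lower. That call was lost without the 24 h replicate 2 library, without the 12 h replicate 1 library and without both shallow libraries. The low marker sums were 78.7, 54.05 and 84.2 at 24 h, against 203, 147 and 133 at 12 h. Of 8 tested erythroid markers 0 were called by limma, 2 by edgeR and 2 by DESeq2, and 5 had an unadjusted limma p under 0.05. Hbb-b1, a beta-globin gene with near-identical copies, had 261, 84.8 and 117 at 24 h, against 471, 366 and 111 at 12 h, with overlap.

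**Figure D4:**
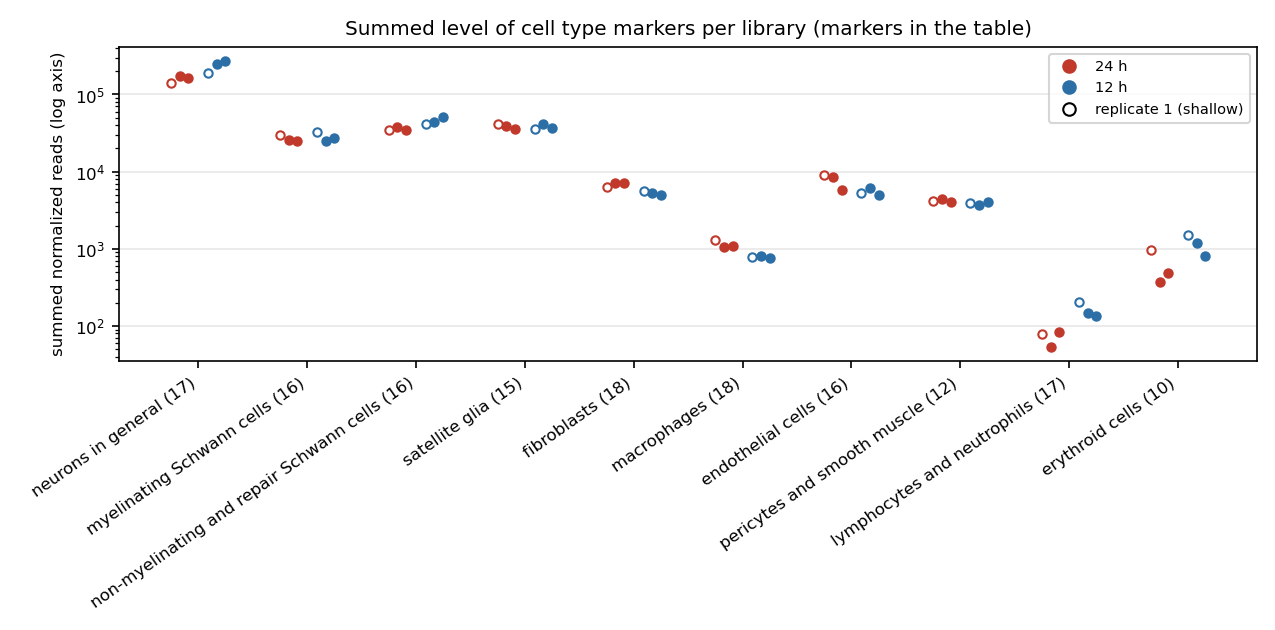
Summed normalized reads of the markers of 10 cell types, on a log axis, with the number of markers in the table in brackets; each point is 1 library, red for 24 h and blue for 12 h, and open points are the shallow replicate 1 libraries. Neuron sums lie between 139725 and 171675 at 24 h, below the 12 h sums, while macrophage and fibroblast sums lie above theirs.

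The step between 12 h and 24 h was set beside the steps before and after it, in the same fit. The earlier step, 12 h minus 6 h, had 1588 called genes (10.6%), of which 880 were higher (5.86%) and 708 lower (4.72%), and the later step, 36 h minus 24 h, had 398 (2.65%), of which 166 were higher (1.11%) and 232 lower (1.55%). Neighbouring steps share libraries, since 12 h is the end of one and the start of the next, so a value that is off in these libraries moves both. The difference between steps was tested directly. It was called for 75 genes between the middle and the early step, positive in 46 (0.307%) and negative in 29 (0.193%), and for 27 genes (0.180%) between the late and the middle step. Without 1 library these counts ran from 17 (without the 24 h replicate 1 library) to 281 (without the 12 h replicate 1 library), and from 5 (without the 24 h replicate 1 library, and equally without the 24 h replicate 3 library) to 169 (without the 12 h replicate 1 library).

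For a few genes the values at all 4 times are given. Some were picked for a large middle step, which favours a difference between steps. Slc16a12 had means of 513 ± 61.9, 186 ± 45.7, 14.9 ± 5.19 and 25.9 ± 2.68 in order of time (SD, n = 3 each), and its late step was not called (0.81 ± 0.26), with a late minus middle difference of 4.39 ± 0.45 (SE; limma adjusted p = 8.44e-04). Mrgprd was called lower in each of the 3 steps, at -1.01 ± 0.19, -3.10 ± 0.19 and -2.13 ± 0.19 in order of time, more steeply in the middle than in the early one (-2.09 ± 0.33 SE, limma adjusted p = 0.0103). That call was lost without the 12 h replicate 3 library (-1.86 with adjusted p = 0.0643). Prkcq changed less in the late than in the middle step, with a late minus middle difference of 2.06 ± 0.27 (SE; limma adjusted p = 0.00469). That call was lost without the 24 h replicate 3 library, at an adjusted p of 0.0555. Sprr1a rose in the early step (3.14 ± 0.28) and in the middle step (2.71 ± 0.28), and the late step was not called (0.88 ± 0.28). Itga7 was called higher in all 3 steps, at 0.59 ± 0.17, 1.44 ± 0.17 and 0.70 ± 0.17. Scn11a was called lower in all 3, at -0.44 ± 0.11, -1.43 ± 0.11 and -1.33 ± 0.11, with means of 9144 ± 1169.8, 6724 ± 581, 2484 ± 31.5 and 987 ± 30.8. Pdia4 stood at 411 ± 14.6, 470.4 ± 17.5, 979 ± 44.9 and 1417 ± 25.7, and was not called in the early step (0.20 ± 0.10) but was higher in the late one (0.53 ± 0.10). The middle step of Pdia4 exceeded its early step by 0.86 ± 0.18 (SE; limma adjusted p = 0.0495). That call was lost in 5 of the 6 fits that left out 1 library, with the highest adjusted p at 0.232 without the 12 h replicate 2 library. Its late minus middle difference was not called (-0.52 ± 0.18 SE, limma adjusted p = 0.441). Cacna2d2 had 215 ± 14.9, 119.7 ± 26.3, 68.1 ± 7.94 and 63.7 ± 17.7, and the differences between its steps were not called (0.07 ± 0.39 SE, limma adjusted p = 0.983 and 0.67 ± 0.39 SE, limma adjusted p = 0.748).

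**Figure D5:**
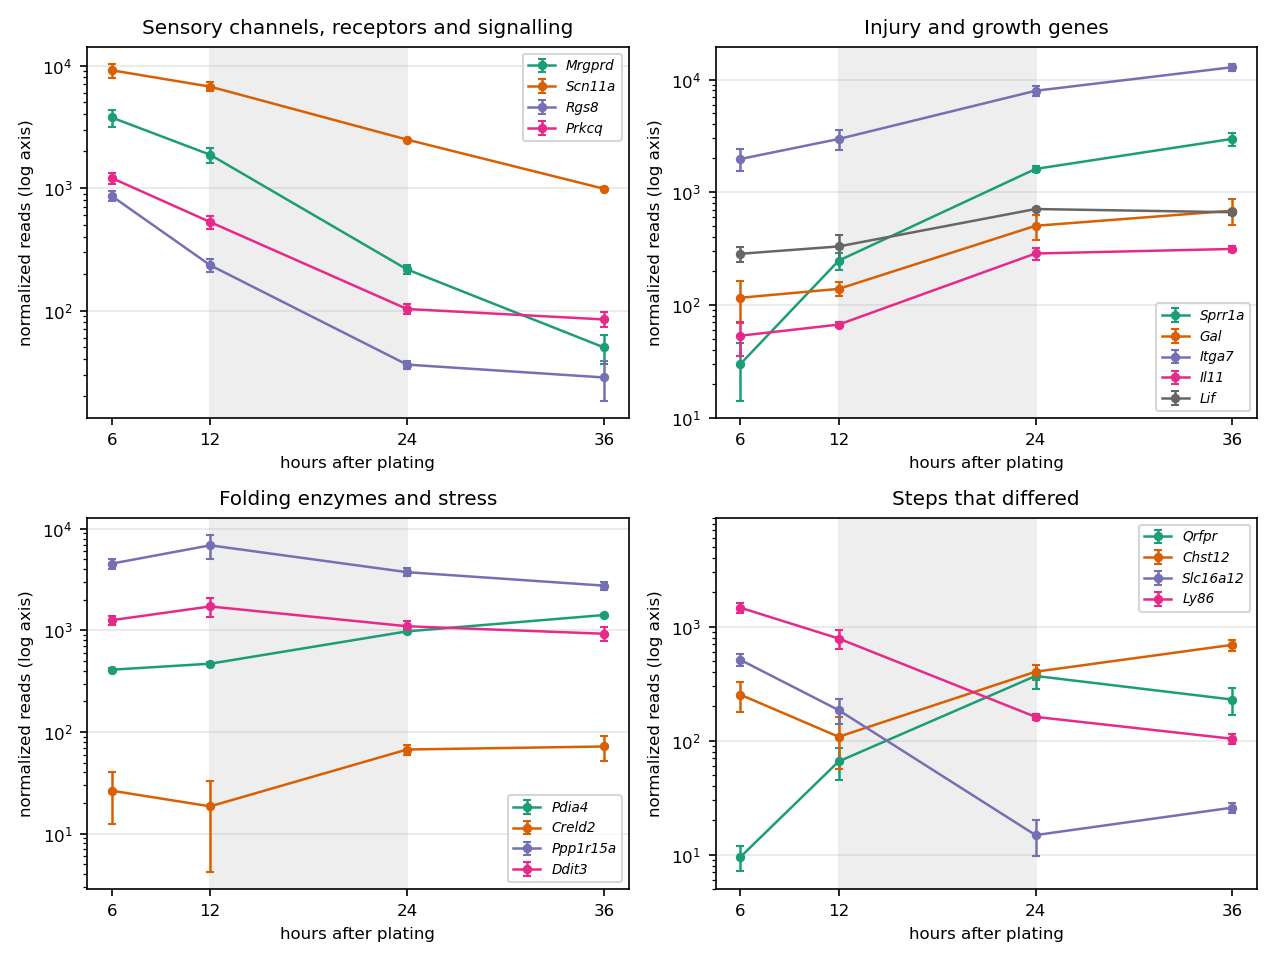
Mean normalized reads (points, log axis) with SD (bars, 3 libraries each) at 6, 12, 24 and 36 h after plating for 17 genes in 4 panels; the shaded band is the step from 12 h to 24 h. Slc16a12 is lower at the end of the band, with a mean of 14.9, than at its start, with a mean of 186, while Scn11a and Itga7 move in the same direction in every step.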

How the data were processed

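Expression was measured in mouse dorsal root ganglion cultures, 3 libraries per time at 6, 12, 24 and 36 h after plating. Per the submitters' processing notes, TopHat and the mouse build mm10 were used; for the counter, the gene annotation and all versions, nothing is stated in the sources used here. The authors' deposited table holds a signal value per gene and library, read counts divided by 1 factor per library, as read from the values: all 339594 values of up to 1000 reads (100%) were whole within a tolerance of 0.1. How the factors were made is not stated. A count test had been planned for raw counts; since the deposited signal is normalized, limma 3.58.1 in R 4.3.3 was used on log2(value + 1), with trend and robust set, and count tests on recovered reads became alternatives (edgeR 4.0.16, DESeq2 1.42.0).

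Genes with a value of at least 10 in at least 3 of the 12 culture libraries were tested, all 12 in 1 fit without covariates, with Benjamini-Hochberg adjustment over 15006 genes and a threshold of 0.05. Differences between steps were contrasts of that fit. Differences are on that log2 scale, where the added 1 shrinks the change of a gene with few reads. Libraries were grouped by the labelled time, and replicate numbers only name them. Replicates were distinct libraries (lowest chi-square per degree of freedom 4.64), and depth ran from 3.13 to 25.7 M reads. Levels behind few reads carry a large counting error.

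The comparison and the 37 gene and 10 marker lists were chosen with earlier results of these data known. Named genes were the Cacna2d genes, the 10 largest rises and falls with a mean of at least 100 and no overlap, up to 2 called rises and 2 falls per list with a mean of at least 50, the most abundant member of lists without calls, and the 5 called genes with the highest levels. List members named without values, Scn9a, Scn10a, Pdia6 and Calr were added with their values known. Part of what that rule selects is left out here. Promoter windows came from RefSeq (GRCm38.p6), and the chromosome of Cacna2d2 from GENCODE M21. The tests were run on simulated counts over 14821 genes. For 24 h minus 12 h limma recovered 29.9%, 83.6% and 100% of planted 1.5-fold, 2-fold and 4-fold changes. Of the limma calls 1.39% were false (edgeR 2.67%, DESeq2 8.62%). Changes were planted only in genes with a mean of at least 50, and the simulated counts had no GC trend and no outlying library. These rates may therefore not hold for the real libraries or for low genes. GC content was known for 99.1% of tested genes. Alternatives covered scaling, filters, pseudocounts, thinning to 3.14 M reads, other tools and left-out libraries.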

Additional observations from a re-analysis of the deposited data

Results flagged for a closer look

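In 7 of the genes with the largest changes the step between 12 h and 24 h differed in size from a neighbouring step. The limma contrasts were adjusted over all tested genes, and the steps share libraries. These genes were chosen for a large middle step, which is a term of both contrasts, so their choice favours such differences. The shares over all genes that follow are therefore not a like comparison. Such differences were called for 0.307% of genes in the positive and 0.193% in the negative direction between the middle and early steps, and for 0.180% between the late and middle steps. Slc16a12 had a late minus middle difference of 4.39 ± 0.45 (SE; limma adjusted p = 8.44e-04), called under every alternative run.

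Chst12 was lower at 12 h than at 6 h and higher at 24 h, a middle minus early difference of 3.33 ± 0.55 (SE; limma adjusted p = 0.0157), at 3.28 with adjusted p = 0.0545 without the 24 h replicate 1 library. Qrfpr, with a late minus middle difference of -3.18 ± 0.49 (SE; limma adjusted p = 0.0131), was at -3.08 with adjusted p = 0.178 without that library. Mrgprd had a middle minus early difference of -2.09 ± 0.33 (SE; limma adjusted p = 0.0103), and -2.12 with adjusted p = 0.190 after thinning to equal depth and -1.86 with adjusted p = 0.0643 without the 12 h replicate 3 library. Prkcq had a late minus middle difference of 2.06 ± 0.27 (SE; limma adjusted p = 0.00469), and 1.91 with adjusted p = 0.0555 without the 24 h replicate 3 library. Rgs8 had a late minus middle difference of 2.26 ± 0.41 (SE; limma adjusted p = 0.0367) and lost its call in 5 of the 6 fits that left out 1 library, among them 2.22 with adjusted p = 0.206 without the 24 h replicate 2 library. Ly86 had a middle minus early difference of -1.35 ± 0.27 (SE; limma adjusted p = 0.0390) and a late minus middle difference of 1.62 ± 0.27 (SE; limma adjusted p = 0.0176). Both were lost when single libraries were left out, at -1.38 with adjusted p = 0.127 without the 12 h replicate 3 library for the first and 1.61 with adjusted p = 0.178 without the 24 h replicate 1 library for the second.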

How the results depend on the processing

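No paired analysis was possible because the labels give the 24 h and 12 h libraries no shared replicate numbers, and numbers given in accession order pair nothing. Of 723 higher and 1011 lower genes, 720 and 1006 were also called after a correction for GC content, which was added after seeing the data and called 1393 higher and 1761 lower. The counts were 477 higher and 667 lower with the 6 libraries alone, 1278 higher with limma-voom, 1741 and 2164 with array weights, and 472 higher after thinning. Leaving out 1 library gave 286 to 1072 higher and 445 to 1492 lower genes. No called gene of the main comparison changed sign under any of the 22 alternatives. TMM scaling (794 and 944), quantile normalization (935 and 1058), edgeR (925 and 1159), DESeq2 (979 and 1455) and the pseudocounts and filters stayed within 1.5 times of both counts.

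Counts of differing steps moved more. Between the middle and early steps 75 genes became 120 with all 24 libraries, 44 without a filter, 117 with edgeR, 273 with DESeq2, 183 with limma-voom, 398 with array weights, 35 after thinning and 323 after the GC correction, and 17 to 281 without 1 library. Between the late and middle steps 27 became 49 with all 24 libraries, 149 with DESeq2, 66 with limma-voom, 370 with array weights, 13 without both shallow libraries and 125 after the GC correction, and 5 to 169 without 1 library. The cause of these changes was not tested.

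Of 139 called genes named by the rule, 81 were called in each of the 6 fits without 1 library, and 109 without both shallow libraries. For 37 of the other 58 the highest adjusted p came without the 24 h replicate 1 library. Some of the 58 were lost in most fits, such as Mmp11 in 6 and Adam12, Mx1, Incenp, Prdx1 and Ndufv3 in 5. Of 143 tested named genes 79 kept their call and direction under all 22 alternatives. Sign changes occurred in 2 genes that were not called: Cacna2d1 (log2 difference 0.0246 without both shallow libraries, and -0.373 to 0.0596 without 1 library) and Ncl (0.11 after quantile normalization, 0.00661 with array weights, 0.0753 without both shallow libraries, and -0.190 to 0.0690 without 1 library). Depth limits low genes most, since 3.13 to 4.57 M reads lie behind the shallow libraries.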

Other observations

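Some families outside the lists had many called members; these were picked with their values known, so their counts are descriptions, beside 4.82% of all genes higher and 6.74% lower. Of 11 tested nicotinic acetylcholine receptor subunits 5 were lower and 0 higher. Chrnb3 had 41.8, 40.9 and 59.1 normalized reads at 24 h, against 207, 115 and 189.9 at 12 h, a difference of -1.80 ± 0.28 (SE; limma adjusted p = 7.67e-04), and Chrna7, the alpha-bungarotoxin receptor, had 251, 319 and 336 at 24 h, against 483, 656 and 629.8 at 12 h, a difference of -0.96 ± 0.17 (SE; limma adjusted p = 0.00215). Neither overlapped between the times, and Chrna3 and Chrna4 were the other lower members beside Chrna6. Of 9 protein kinase C genes 6 were lower and 1 higher. Prkce, which sensitizes nociceptors, had 2305, 2546 and 2707 at 24 h, against 4469, 4219 and 4893 at 12 h, a difference of -0.85 ± 0.11 (SE; limma adjusted p = 2.33e-04), while Prkch had 219, 207 and 163 at 24 h, against 125, 115 and 139 at 12 h, a difference of 0.63 ± 0.19 (SE; limma adjusted p = 0.0400). Whether the call of Prkch held without single libraries is not given here. Psmd11 and Ndufv3, with similar limma adjusted p of 0.0371 and 0.0405, lost their calls in some such fits. Rab27a and Rab27b, GTPases that dock secretory granules, were lower together, at 273, 248 and 299.7 at 24 h, against 1718, 1008 and 1206 at 12 h for Rab27b (-2.22 ± 0.17 SE, limma adjusted p = 1.47e-06) and -1.94 ± 0.24 for Rab27a. Of 19 regulators of G protein signalling 6 were lower and 0 higher, Rgs10 with 342, 358 and 372 at 24 h, against 1048, 846 and 796 at 12 h (-1.32 ± 0.14 SE, limma adjusted p = 2.97e-05).

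Receptors for cholecystokinin differed in direction. Cckbr had 364, 369.6 and 292 normalized reads at 24 h, against 89.6, 105 and 96.3 at 12 h, a difference of 1.80 ± 0.18 (SE; limma adjusted p = 1.72e-05), and Cckar had 41.8, 59.8 and 75.3 at 24 h, against 152, 191 and 214 at 12 h, a difference of -1.66 ± 0.24 (SE; limma adjusted p = 4.91e-04). Every 24 h library was above every 12 h library for Cckbr and below for Cckar. Hmga2, a chromatin protein of growing embryonic tissue, had 738, 719 and 786 at 24 h, against 168, 220.3 and 226 at 12 h, a difference of 1.88 ± 0.17 (SE; limma adjusted p = 5.95e-06). Of 30 tested Hox genes 2 were higher and 3 lower, and neighbours of the Hoxd cluster differed in direction: Hoxd1 had 27.1, 30.8 and 45.4 at 24 h, against 125, 107 and 106 at 12 h (-1.71 ± 0.26 SE, limma adjusted p = 6.47e-04), and Hoxd4 had 179.5, 189.8 and 163 at 24 h, against 113, 94.5 and 94.9 at 12 h (0.81 ± 0.21 SE, limma adjusted p = 0.0211). For Hoxd4, too, fits without single libraries are not given here. Creld2 and Kif23, with similar limma adjusted p of 0.0206 and 0.0216, lost their calls in some such fits. Of 4 tested Ugt1a glucuronosyltransferase genes, which share exons so that the split of reads between them is uncertain, 3 were higher, Ugt1a6a with 942, 951 and 876 at 24 h, against 308, 330.4 and 378 at 12 h (1.45 ± 0.13 SE, limma adjusted p = 5.59e-06).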
